A study of Homo sapiens with 22 samples.

Results

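BAF sites found with the ARID domain mutant of ARID1A, and in neither wild-type nor empty-vector cells, numbered 478 of the 9670 BAF sites of that mutant (4.94%). A BAF site was a SMARCA4 peak of the mutant that overlapped a SMARCC1 peak of the same cells by at least 1 bp on chromosomes 1 to 22. A DBDmut-only site also met no SMARCA4 or SMARCC1 peak of WT cells or of either Empty replicate. The sites were thus chosen by the SMARCA4 and SMARCC1 peak calls of DBDmut, WT and Empty, so their number and their strength are a description, with no test. The other 9192 DBDmut BAF sites comprised 2275 that met a WT peak but no Empty peak, 591 that met an Empty peak but no WT peak, and 6326 that met both.

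The data were peak lists from CUT&Tag, which uses a tethered transposase to cut and tag DNA near an antibody's target. All libraries came from AN3CA, a line of human endometrial carcinoma that here expressed 1 of 5 forms of ARID1A or an empty vector (Empty). The forms were an ARID domain mutant (DBDmut), the delIDR1 truncation, the CBR truncation, a hybrid with an intrinsically disordered region of DDX4 (DDX4), and wild-type ARID1A (WT). Each was profiled for SMARCA4, SMARCC1 and H3K27ac with 1 library per antibody, Empty with 2, and DDX4 also with 1 HA-tag library, 22 in all. The labels do not say what was changed in DBDmut, whether a line was 1 clone, or whether the Empty replicates were separate cultures.

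BAF, or SWI/SNF, complexes use the energy of ATP to slide or evict nucleosomes, and ARID1A is a large subunit found in the canonical form. SMARCA4 is an ATPase of the complex and SMARCC1 is a core scaffold subunit. The ARID domain binds DNA with little sequence preference, and H3K27ac is an acetyl mark of active enhancers and promoters. Peaks of SMARCA4 and SMARCC1 do not show which form of the complex was present, because other BAF assemblies contain both.

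Depth differed between libraries. Relative depth, estimated from the peaks' own statistics, was 0.913 fragments per kb for SMARCA4 in DBDmut, against 1.53 in WT and 1.23 and 1.94 in the Empty replicates. For SMARCC1 it was 1.62 in DBDmut, against 3.29 in WT and 2.10 and 2.45 in the Empty replicates. The libraries that excluded sites were therefore all deeper by this estimate than the libraries that supplied them. DBDmut still had 14849 SMARCA4 peaks, more than the 5453 to 12720 of the other libraries with this antibody. Peak names of the DBDmut, delIDR1, CBR, WT and Empty replicate 1 lists shared a stamp. DDX4 and Empty replicate 2 each had a stamp of their own.

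DBDmut-only sites were weak among DBDmut BAF sites. The median SMARCA4 fold enrichment over the local background, a value the authors gave each peak, was 5.78 at DBDmut-only sites and 8.13 at the other DBDmut BAF sites. Their median rank among DBDmut SMARCA4 peaks was 10218, against 5075 for the others, where rank 1 is the highest -log10 q. The SMARCC1 peaks at the same sites had a median fold of 6.43, against 8.87, and a median rank of 12292, against 5213. The sites that DBDmut shared with WT but not Empty lay between, with median folds of 7.33 for SMARCA4 and 8.03 for SMARCC1.

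The fragments behind these peaks were few. The number of fragments stacked at a summit follows from the peak's fold and p-value. Its median for SMARCA4 was 6 at DBDmut-only sites (quartiles 5 and 8), against 12 at the other DBDmut BAF sites (9 and 18). For SMARCC1 it was 8 (7 and 11), against 18 (12 and 27). The fewest fragments in any called SMARCA4 peak were 3 in DBDmut, against 4 in WT and 4 and 5 in the Empty replicates. Peaks were narrow, with a median SMARCA4 length of 151 bp at DBDmut-only sites and 216 bp at the others. The summits of SMARCA4 and SMARCC1 lay within 100 bp of each other at 380 of 478 DBDmut-only sites (79.5%), against 82.4% of the others.

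The weakest DBDmut BAF sites held most of them. When all 9670 sites were split by SMARCA4 rank into 5 strength groups of 1934 sites, from strongest (group 1) to weakest (group 5), the groups held 1, 23, 65, 114 and 275 DBDmut-only sites. The weakest group thus held 57.5% of them. Both subunits ranked in the upper part of their DBDmut lists, above the median peak, at 50 DBDmut-only sites (10.5%), against 59.7% of the others. Across sites, the -log10 q of SMARCA4 and SMARCC1 had a Spearman rho of 0.28 over 478 DBDmut-only sites and 0.64 over the others. The rho is a description, since both lists come from the same cells and the selection narrowed the range.

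**Figure D1:**
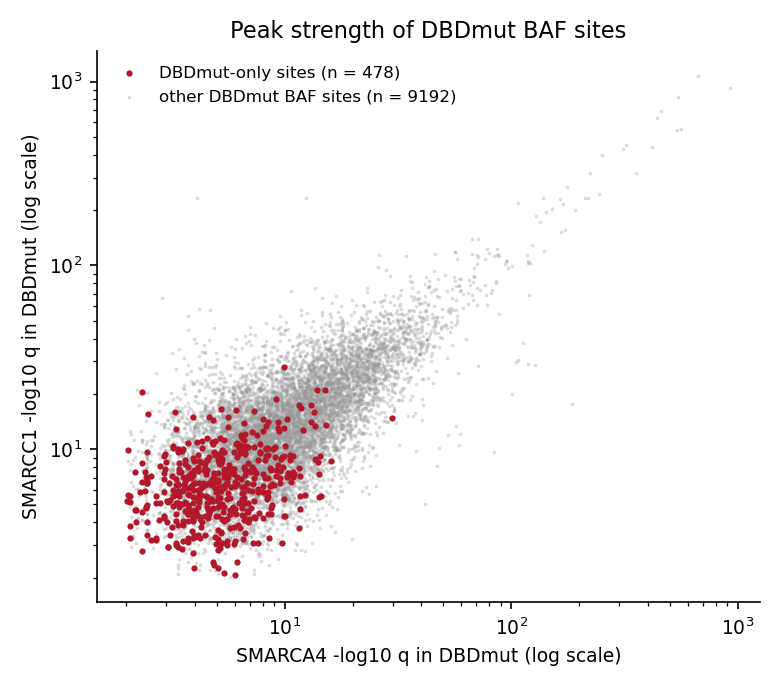
SMARCC1 -log10 q against SMARCA4 -log10 q in DBDmut cells, both on log axes, with 1 point per DBDmut BAF site (478 DBDmut-only sites and 9192 others). The DBDmut-only sites lie in the lower left, up to 29.6 for SMARCA4 and 28.0 for SMARCC1, while other sites reach 921 and 1076.

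The number of such sites was set beside the number the same rule gives in every other library. Each library's BAF sites were required to miss all SMARCA4 and SMARCC1 peaks of WT and both Empty replicates, with DBDmut put in place of the library itself where that was WT or Empty. The rule gave 478 sites in DBDmut (4.94%, Wilson 95% interval 4.53 to 5.39), 63 in delIDR1 (1.39%), 356 in CBR (5.91%, 5.34 to 6.54) and 21 in DDX4 (0.447%). It gave 1705 in WT (17.8%), 20 in Empty replicate 1 (0.488%) and 320 in Empty replicate 2 (4.95%, 4.45 to 5.50). The share in DBDmut was thus as high as that of Empty replicate 2, a control library with another stamp, and its interval overlapped that of CBR. Each construct was 1 library, so the number of DBDmut-only sites has no replicate check, and Wilson intervals cover counting error only.

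**Figure D2:**
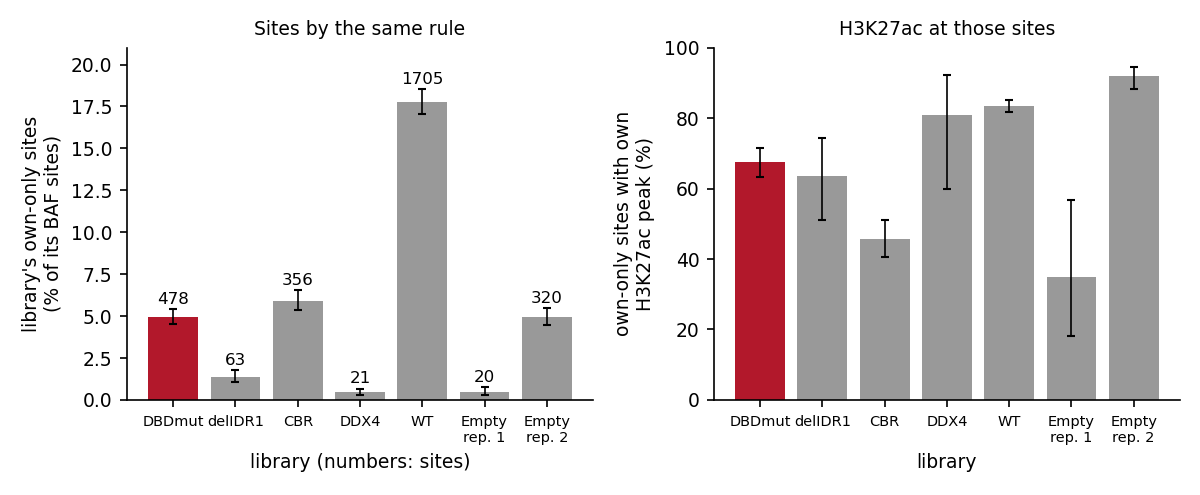
Left, sites found by the same rule in each library as a percent of its BAF sites, with the number of sites above each bar; right, percent of those sites with an H3K27ac peak in the same library. Bars are Wilson 95% intervals; DBDmut is at 4.94%, Empty replicate 2 at 4.95% and WT at 17.8%.

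The count moved with the settings. Keeping only DBDmut peaks of -log10 q of at least 5 left 187 sites, cutting all lists of an antibody to the same number of peaks left 115, and using SMARCA4 peaks alone, both to find and to exclude sites, gave 5842. Leaving out Empty replicate 1 or 2 gave 589 or 638.

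The sites were mostly away from the excluding peaks. The nearest SMARCA4 or SMARCC1 peak of WT or Empty was at a median distance of 12901 bp. It lay within 100 bp at 26 sites (5.44%), within 1 kb at 68 (14.2%) and within 10 kb at 203 (42.5%). At the edge of the rule, the site on chromosome 5 from 116173627 to 116173761 missed an excluding peak by 3 bp and had a SMARCA4 fold of 5.39, and the site on chromosome 2 from 48647908 to 48648063 missed by 7 bp, with a fold of 4.81. Just outside, the site on chromosome 2 from 45641980 to 45642088 overlapped an excluding peak by 1 bp, with a fold of 5.05, and the site on chromosome 3 from 78803482 to 78803750 by 3 bp, with a fold of 6.65. Excluding every site with a WT or Empty peak within 1 kb left 410.

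Few DBDmut-only sites lay close to one another. Joining close neighbours among DBDmut-only sites gave 7 regions of more than 1 site, which spanned 0.509 to 12.7 kb. Each held 2 sites, 14 of the 478 in all (2.93%). A DBDmut BAF site of any class lay within the same joining distance at 103 of the 478 (21.5%), against 29.7% of the others. Whether 14 is more or fewer than chance would give was not tested, so neither scatter nor clustering is read from it. The median distance to the next DBDmut BAF site of any class was 44306 bp, against 33150 bp for the others. Among 22 chromosomes, 6 had a share of DBDmut-only sites whose interval left out the 4.94% of all, with no adjustment for their number. Those above it were chromosome 15 with 25 of 327 (7.65%, 5.23 to 11.0), chromosome 3 with 35 of 510 (6.86%), chromosome 2 with 49 of 727 (6.74%) and chromosome 5 with 49 of 740 (6.62%). Those below it were chromosome 19 with 7 of 551 (1.27%, 0.617 to 2.60) and chromosome 20 with 5 of 248 (2.02%, 0.864 to 4.63). One of these 7 equal regions, the first when chromosome names are sorted as text, lay on chromosome 12 from 66187638 to 66195001. Both of its sites had H3K27ac in DBDmut and in WT and in neither Empty replicate.

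H3K27ac was not used to choose the sites, and it was asked how often these sites carried it in each construct. Most did in DBDmut, where 323 of the 478 sites overlapped an H3K27ac peak (67.6%, 63.3 to 71.6). The share was 42.7% in delIDR1 (38.3 to 47.2), 18.0% in CBR (14.8 to 21.7) and 21.3% in DDX4 (17.9 to 25.2). It was 56.1% in WT (51.6 to 60.5), which by the rule had no BAF peak there. In Empty replicates 1 and 2 it was 17.6% and 27.4%. H3K27ac of WT also overlapped 69.2% of DBDmut BAF sites that met an Empty but no WT peak. At the sites that the same rule gave in other libraries, H3K27ac of WT overlapped 66.25% for Empty replicate 2 and 57.1% for DDX4. It overlapped 44.4% for delIDR1, 30% for Empty replicate 1 and 28.7% for CBR. The background over all 9670 DBDmut BAF sites was 88.4% in DBDmut, 82.3% in delIDR1, 69.7% in CBR, 74.9% in DDX4, 89.7% in WT, and 69.1% and 74.9% in the Empty replicates. DBDmut-only sites were thus below the background in every library, and DBDmut, WT and delIDR1 stood above the other 4 libraries. With SMARCA4 peaks alone the share was 49.5% in DBDmut and 49.4% in WT, so neither a majority nor the lead of DBDmut over WT held there. With lists cut to one length per antibody it was 85.2% in DBDmut, 67.0% in delIDR1 and 65.2% in WT. At the sites that the same rule gave in each other library, that library's own H3K27ac overlapped 91.9% in Empty replicate 2 and 83.5% in WT. It overlapped 81.0% of 21 sites in DDX4, 63.5% in delIDR1, 45.8% in CBR and 35% of 20 sites in Empty replicate 1. The 67.6% in DBDmut thus lay within the range of the other libraries. No test was made, since each construct was 1 library, and depth and stamp were not held equal. For H3K27ac, relative depth ran from 3.59 fragments per kb in delIDR1, with 30991 peaks, to 14.5 in Empty replicate 2, with 90766 peaks.

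The low shares at DBDmut-only sites in CBR, DDX4 and Empty depend on which control excluded sites. Without Empty replicate 2 in the rule, H3K27ac overlapped 32.3% of sites in CBR, 36.4% in DDX4 and 30.6% in Empty replicate 1. Without Empty replicate 1 the share was 22.8% in CBR and 26.3% in DDX4. In DBDmut and WT the same 2 changes gave 63.3% to 66.8% and 54.7% to 60.2%.

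The sites that DBDmut shared with WT but not Empty were set beside them, because both classes lacked BAF peaks in Empty. In DBDmut, H3K27ac overlapped 67.6% of DBDmut-only and 90.5% of shared sites. The same pair of shares was 42.7% and 79.4% for delIDR1, 18.0% and 32.8% for CBR, and 21.3% and 34.5% for DDX4. In WT it overlapped 56.1% of DBDmut-only and 90.6% of shared sites. In Empty replicate 1 the 2 classes were at 17.6% and 17.1%, and in replicate 2 at 27.4% and 23.5%, with overlapping intervals in both. The intervals of the classes were thus apart in all 5 libraries with ARID1A and overlapped in both Empty libraries. These intervals cover counting error within a library only, and each form of ARID1A was 1 library. By the choice of sites, shared sites had a SMARCA4 or SMARCC1 peak of WT and DBDmut-only sites had none. Neither class had such a peak of Empty. The part of this choice in the gap in WT and the overlap in Empty was not tested.

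**Figure D3:**
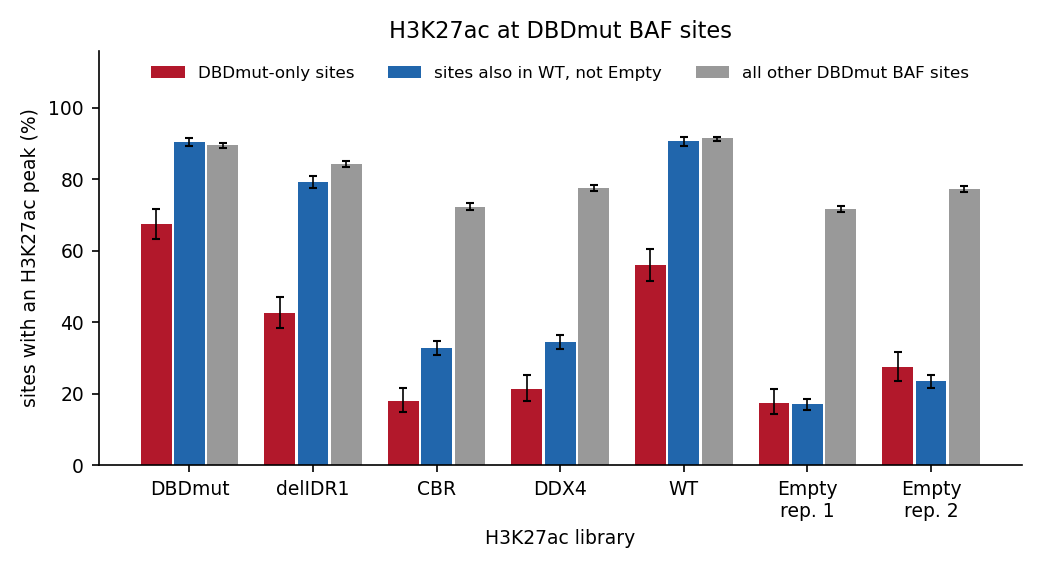
Percent of DBDmut BAF sites that overlap an H3K27ac peak in each of 7 libraries, for DBDmut-only sites (n = 478), sites also in WT but not Empty (n = 2275) and all others (n = 9192, which include the 2275), with Wilson 95% intervals. DBDmut-only sites stand highest in DBDmut (67.6%), WT (56.1%) and delIDR1 (42.7%).

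The gap between the classes in H3K27ac of DBDmut, WT, delIDR1 and DDX4 was also present among weak sites of like SMARCA4 strength. For CBR the intervals of DBDmut-only and shared sites were apart in strength group 4 and just overlapped in the weakest group. Within the weakest strength group of DBDmut BAF sites, H3K27ac of DBDmut overlapped 175 of 275 DBDmut-only sites (63.6%, 57.8 to 69.1), against 86.3% of the sites shared with WT but not Empty (83.3 to 88.8) and 84.0% of all others. In strength group 4 it overlapped 83 of 114 (72.8%, 64.0 to 80.1), against 90.5% and 86.6%. For H3K27ac of WT the weakest group gave 54.5% of DBDmut-only sites, against 86.9% and 85.2%. For H3K27ac of Empty replicate 1 it gave 17.1% of DBDmut-only sites and 17.0% of shared sites, against 57.1% of all others. For H3K27ac of CBR the weakest group gave 20% of DBDmut-only sites (15.7 to 25.1) and 28.1% of shared sites (24.6 to 31.7). These intervals overlap only from 24.6 to 25.1. In strength group 4 CBR gave 14.0% (8.83 to 21.6) and 30.0% (26.4 to 33.9). For DDX4 the weakest group gave 20.7% (16.4 to 25.9) and 30.3% (26.8 to 34.1), and strength group 4 gave 20.2% (13.8 to 28.5) and 34.9% (31.1 to 38.9). In strength group 2, with 23 DBDmut-only sites, DDX4 gave 34.8% (18.8 to 55.1) and 33.5%. For delIDR1 the weakest group gave 41.5% of DBDmut-only sites and 72.4% of shared sites. SMARCC1 strength was not held equal in these groups.

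**Figure D4:**
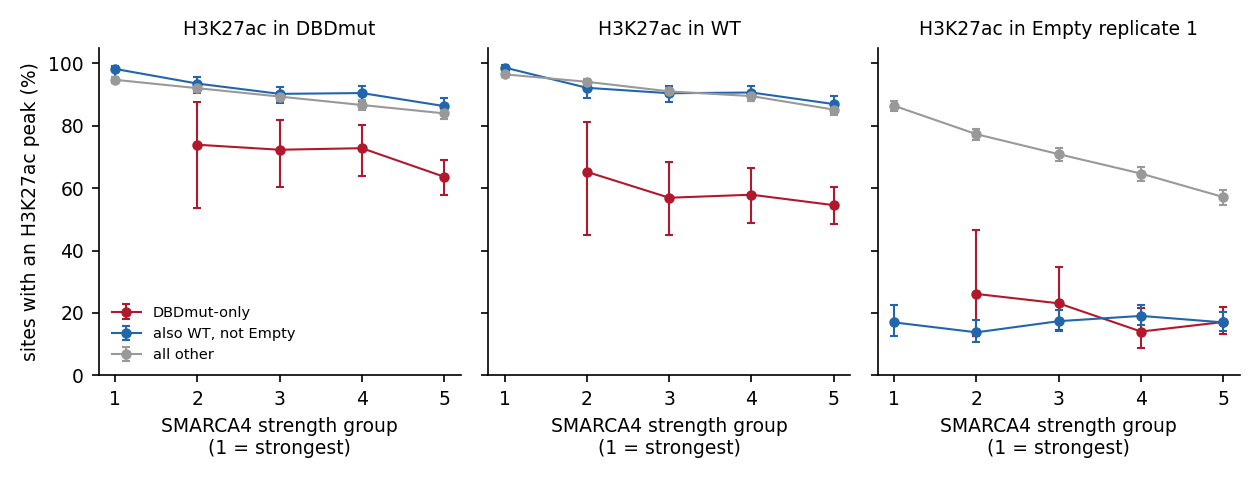
Percent of sites with an H3K27ac peak of DBDmut, WT or Empty replicate 1, by strength group of SMARCA4 in DBDmut (1 = strongest), with Wilson 95% intervals; all others include the sites also in WT, and points of under 20 sites are not drawn. In the weakest group the DBDmut-only sites are at 63.6%, 54.5% and 17.1% in the 3 panels.

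The sites fell into several acetylation patterns. At 243 of the 478 (50.8%) both DBDmut and WT had H3K27ac, against 85.1% of all DBDmut BAF sites. DBDmut had it without WT at 80 (16.7%), against 3.35%, and neither had it at 130 (27.2%), against 6.95%. WT had it without DBDmut at 25 (5.23%, 3.57 to 7.61), which was near the 4.602% of all sites. At 338 sites (70.7%) neither Empty replicate had the mark, against 23.1% of all sites and 72.4% of those shared with WT but not Empty. Of these 338, DBDmut had the mark at 231 (68.3%), delIDR1 at 126 (37.3%), CBR at 12 (3.55%), DDX4 at 8 (2.37%) and WT at 176 (52.1%). Among the 1898 other DBDmut BAF sites with no Empty mark, the shares were 80.9% for DBDmut, 68.3% for delIDR1, 15.5% for CBR, 17.2% for DDX4 and 79.9% for WT.

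H3K27ac present in DBDmut and in neither WT nor Empty was found at 69 DBDmut-only sites (14.4%, 11.6 to 17.9), against a background of 1.85% of DBDmut BAF sites. At 49 of the 69, no other library had the mark either. H3K27ac in no library was found at 85 sites (17.8%, 14.6 to 21.5), against a background of 3.46%. At the other end, 21 sites (4.39%) had H3K27ac in all 7 libraries, against 58.3% of the other DBDmut BAF sites. At sites shared with WT but not Empty this share was 9.93%. Sites with no H3K27ac anywhere had a median SMARCA4 rank of 10980, and sites with H3K27ac in DBDmut one of 10031.

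The acetylated regions themselves were of middle strength. The H3K27ac peaks of DBDmut at these sites had a median fold of 6.56 and a median length of 453 bp, against 7.39 and 654 bp at the other DBDmut BAF sites. Over all DBDmut H3K27ac peaks the medians were 5.45 and 381 bp. In WT, the H3K27ac peak lying over a DBDmut-only site met a WT SMARCA4 or SMARCC1 peak anywhere along its length in 20 of 268 cases (7.46%), against 95.6% at the other DBDmut BAF sites. In Empty replicate 1 this held for 2 of 84 (2.38%), against 86.8%. At the other sites a BAF peak at the site itself counted, while the rule bars it at DBDmut-only sites. This gap is thus largely fixed by the choice of sites. At the 155 sites without H3K27ac in DBDmut, the nearest such peak lay within 1 kb at 24 (15.5%), against 22.97% at the others, and the median distance was 13676 bp, against 11072 bp.

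The other constructs rarely had BAF at these sites. Both subunits were present at 16 of 478 in delIDR1 (3.35%, 2.07 to 5.37), at 20 in CBR (4.18%, 2.72 to 6.37) and at 3 in DDX4 (0.628%, 0.214 to 1.83). The background over all DBDmut BAF sites was 39.9% in delIDR1, 43.5% in CBR and 41.7% in DDX4. At sites shared with WT but not Empty, both subunits were present at 23.6% in delIDR1 (21.9 to 25.4) and 8.92% in CBR (7.82 to 10.2). In DDX4 they were present at 0.967% of shared sites (0.639 to 1.46), and the intervals of the 2 classes overlapped. At DBDmut-only sites, the share in delIDR1 was 6.95% with DBDmut peaks of -log10 q of at least 5. It was 14.8% with lists cut to one length per antibody. The share in DDX4 was 3.22% with SMARCA4 peaks alone and 3.61% without Empty replicate 2.

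Counting a peak of either subunit, 71 sites had 1 in delIDR1 (14.9%, 11.9 to 18.3), 66 in CBR (13.8%, 11.0 to 17.2) and 40 in DDX4 (8.37%, 6.21 to 11.2), against backgrounds of 69.2%, 64.5% and 65.9%. At sites shared with WT but not Empty the same shares were 50.2%, 23.2% and 10.2%. DBDmut-only sites were thus below the shared sites beyond counting error in delIDR1 and CBR, and in DDX4 the 2 intervals overlapped. At 338 sites (70.7%) none of the 3 constructs had a peak of either subunit, against 12.8% of the other DBDmut BAF sites. A single construct had a peak at 106 sites (22.2%), against 16.7%, and a pair of constructs at 31 (6.49%), against 20.3%. All of them had a peak at 3 sites (0.628%), against 50.2%. Both subunits were called in all 3 constructs at 0 of the 478 sites, against 23.9% of the others. The HA library of DDX4 had a peak at 5 sites (1.05%), against a background of 31.7%. Relative depth was 1.03, 1.19 and 1.22 fragments per kb for SMARCA4 of delIDR1, CBR and DDX4, and 1.32, 2.87 and 1.40 for SMARCC1.

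**Figure D5:**
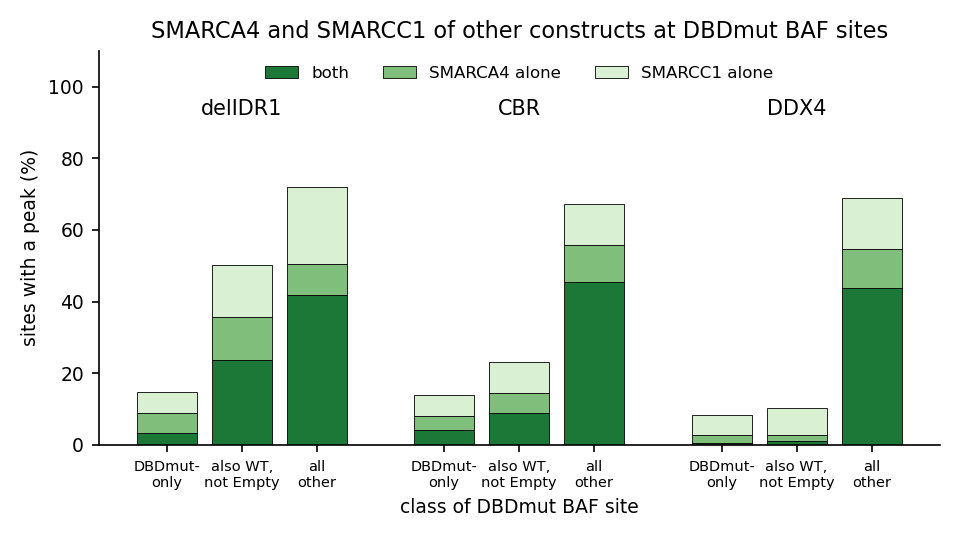
Percent of DBDmut BAF sites with both subunits, SMARCA4 alone or SMARCC1 alone in delIDR1, CBR and DDX4, for DBDmut-only sites, sites also in WT but not Empty, and all others (which include the second class). For DBDmut-only sites the stacks reach 14.9%, 13.8% and 8.37%.

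At these sites, H3K27ac in a construct was more frequent where that construct had BAF. In delIDR1 it overlapped all 16 sites with both subunits, 30 of 55 with a single subunit (54.5%) and 158 of 407 with neither (38.8%). In CBR it overlapped 14 of 20, 15 of 46 and 57 of 412 (13.8%). In DDX4 it overlapped 3 of 3, 24 of 37 and 75 of 438 (17.1%). These splits were not made over all DBDmut BAF sites, so they show nothing particular to DBDmut-only sites. The acetylation of DBDmut itself was present at 55 of the 71 sites with a BAF peak in delIDR1 (77.5%), at 30 of the 66 in CBR (45.5%) and at 21 of the 40 in DDX4 (52.5%). Where delIDR1, CBR or DDX4 had no BAF peak, it was present at 65.8%, 71.1% and 68.9% of DBDmut-only sites. No intervals were computed for these shares. The split was not made over all DBDmut BAF sites, of which 88.4% had H3K27ac in DBDmut.

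The 12 strongest DBDmut-only sites, by summed rank of both subunits, had H3K27ac at 10 in DBDmut, 6 in delIDR1, 1 in CBR, 4 in DDX4, 8 in WT and 3 in each Empty replicate. The site of smallest summed rank was on chromosome 12 (112704989 to 112705092), where DBDmut had folds of 11.1 for SMARCA4 and 13.7 for SMARCC1. There H3K27ac was called in Empty replicate 1 alone (fold 14.6), and CBR had a SMARCA4 peak (fold 14.3). DBDmut itself had no H3K27ac peak at that site. Folds of different libraries are given side by side here as each list's own and are not on one scale.

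The next was on chromosome 11 (10271248 to 10271424) and had the highest SMARCA4 fold of all 478 sites, 17.4, at rank 527 and from 24 fragments at its summit. Its SMARCC1 fold was 10.7 and its H3K27ac fold in DBDmut 9.76. No other library had a peak of SMARCA4, SMARCC1 or H3K27ac there, and the nearest WT or Empty BAF peak was 26293 bp away.

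Other sites of the 12 were acetylated in WT without a BAF peak there. On chromosome 6 from 86182617 to 86182816, DBDmut had folds of 10.6 for SMARCA4, 12.9 for SMARCC1 and 6.58 for H3K27ac, and WT had H3K27ac at a fold of 7.59. On chromosome 13 from 67721601 to 67721705, H3K27ac was called at folds of 10.9 in DBDmut, 9.77 in delIDR1 and 10.6 in WT, and in no other library, and an excluding peak lay 104 bp away. On chromosome 21 from 30195214 to 30195576, it was called at folds of 7.71 in DBDmut, 5.12 in delIDR1 and 6.49 in WT, and in no other library. Neither subunit was called in delIDR1, CBR or DDX4 at these sites. On chromosome 4 from 88929885 to 88930060, H3K27ac folds were 13.9 in DBDmut, 13.7 in delIDR1, 8.27 in DDX4, 12.54 in WT and 5.44 in Empty replicate 2.

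The delIDR1 truncation had both subunits at 3 of the 12. On chromosome 4 from 73276139 to 73276550, the SMARCA4 and SMARCC1 folds were 8.65 and 14.4 in DBDmut and 8.33 and 8.61 in delIDR1, with H3K27ac in DBDmut, delIDR1 and WT. On chromosome 4 from 157023096 to 157023618, the folds were 8.75 and 8.74 in DBDmut and 10.2 and 10.05 in delIDR1, with H3K27ac in DBDmut, delIDR1 and DDX4. A WT or Empty BAF peak lay 118 bp from that site. On chromosome 14 from 23764339 to 23764462, both subunits were also called in CBR, with folds of 10.01 and 15.5, and all 7 libraries had H3K27ac, with a fold of 9.51 in DBDmut.

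Where DBDmut had H3K27ac and neither WT nor Empty did, the 5 strongest sites included those on chromosome 11 and on chromosome 4 from 157023096. The others lay on chromosome 16 from 15714610 to 15714870 (H3K27ac folds of 4.78 in DBDmut and 4.52 in delIDR1), on chromosome 8 from 37160230 to 37160413 (4.38 in DBDmut alone) and on chromosome 10 from 11815858 to 11816032 (6.58 in DBDmut and 6.46 in delIDR1). The delIDR1 truncation thus shared the mark at 3 of the 5 sites, and both subunits at 1 of them.

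The 5 strongest sites with no H3K27ac in any library lay on chromosome 7 from 155711783 to 155711979, chromosome 3 from 173688286 to 173688481, chromosome 12 from 49012352 to 49012501, chromosome 17 from 61600490 to 61600596 and chromosome 17 from 74751669 to 74751848. Their SMARCA4 folds were 8.18, 7.89, 6.94, 7.58 and 5.31, from 9, 8, 7, 8 and 5 fragments at the summit. Among these 5, DDX4 had a SMARCC1 peak at the site on chromosome 12 and CBR at the site on chromosome 17 from 74751669, and no other peak of the 3 constructs was called.

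The remaining sites with both subunits in CBR that the rule names lay on chromosome 2 from 239165233 to 239165376, with SMARCA4 and SMARCC1 folds of 8.42 and 8.76 in DBDmut and 6.73 and 10.4 in CBR, and on chromosome 7 from 15548157 to 15548294, with 6.65 and 5.87 in DBDmut, 9.63 and 9.37 in delIDR1, which also had both there, and 5.25 and 7.40 in CBR. The first had H3K27ac in every library but delIDR1. The second had it in every library but CBR and Empty replicate 2, although CBR had BAF there.

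All 3 sites with both subunits in DDX4 ranked low in DBDmut, with summed ranks at places 257, 342 and 426 among the 478. Those on chromosome 9 from 129525695 to 129525875 and on chromosome 1 from 32110587 to 32110699 had H3K27ac in all 7 libraries. An excluding peak lay 68 bp from the site on chromosome 1.

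The DDX4 site at place 342 lay on chromosome 1 from 27106773 to 27106897, 80 bp from an excluding WT SMARCC1 peak. In the window around it, from 27105273 to 27107397, 15 of the 16 libraries with a form of ARID1A had a peak, whatever the antibody, and 1 of the 6 Empty libraries did. The H3K27ac peaks of DBDmut, delIDR1 and DDX4 all began at 27105602, that of CBR at 27105578 and that of WT at 27105648. By general knowledge of hg19, since no annotation of that build was used, this window lies within ARID1A itself, the gene whose forms these cells were made to express. By the same knowledge another DBDmut-only site, on chromosome 1 from 27087414 to 27087530, also lies in that gene. It was outside the rule for named sites, had H3K27ac in DBDmut and WT and in no other library, and had no BAF peak in delIDR1, CBR or DDX4. The part of fragments from an introduced copy was not tested for either site.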

How the data were processed

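Peaks were deposited per library in narrowPeak format, in hg19 per the submitters' processing notes, which also name bcl2fastq. The sources used here do not give the aligner, the peak caller, a control or how duplicates were handled. Per the labels' protocols, libraries had 14 PCR cycles. The authors deposited for each peak a fold enrichment (a ratio to local background), a -log10 p-value, a -log10 q-value (always above 2) and a score that rescales that -log10 q. These values are the authors' and rank and describe peaks within a list. Where folds of different lists stand side by side, each is its own list's value and no change is read from them. Totals of fragments are not in the lists, so pileups were solved from the fold and p-value as a Poisson tail, and the solved -log10 p came within 0.001 of the deposited one for 99.7% of peaks or more in each library. Relative depth is the lowest background over the shortest peak length.

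Samples were grouped by title. Sites, classes and H3K27ac were compared by overlap of at least 1 bp, with Wilson 95% intervals for counting error only, because PCR copies and neighbouring sites are not independent. The members and site lists were chosen with earlier results of these data known. Sites named are the 12 of smallest summed rank, the 5 with H3K27ac in DBDmut and no WT or Empty library, the 5 with none, the 3 with both subunits in each other construct, the joined region with most sites (all had 2, so the first with chromosome names sorted as text) and those at the edge of the overlap. No hg19 genome or annotation was used, so no sequence or gene is given for a site, apart from 1 stated from general knowledge. Alternatives changed the peak threshold, the list length, the overlap, the exclusion distance, the subunits required and the Empty replicate used. Overlaps and pileups were tested on simulated data. Computations used Python 3.11.15, numpy 2.4.6, scipy 1.17.1, pandas 2.3.3 and matplotlib 3.10.9.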

Additional observations from a re-analysis of the deposited data

Results flagged for a closer look

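The HA-tag library of DDX4 cells, which lies outside the comparisons of SMARCA4, SMARCC1 and H3K27ac, had a peak at 5 of the 478 DBDmut-only sites (1.05%, Wilson 95% interval 0.448 to 2.43). The count is above the 3 sites that a count of 0 allows, which says nothing about these sites in particular, since the background over all DBDmut BAF sites was 31.7%, and the share was 4.48% at sites shared with WT but not Empty. No HA library of another construct was analysed here, so this value has no control, and its list was short, with 5268 peaks.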

How the results depend on the processing

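Of 75 values under 7 alternatives, 48 stayed within 1.5 times the count or within the Wilson interval of the share, and 27 did not. The number of sites, 478, became 187 with DBDmut peaks of -log10 q of at least 5, 115 with 5453 SMARCA4, 9489 SMARCC1 and 30991 H3K27ac peaks per list, and 5842 with SMARCA4 peaks alone used to find and to exclude sites. An overlap of 50% of the shorter peak (490 sites) and a 1 kb exclusion margin (410) moved none of the values. With the -log10 q of at least 5, H3K27ac was at 72.2% of sites in DBDmut and 61.5% in WT, and both subunits of delIDR1 at 6.95%. With lists of the same length, H3K27ac was at 85.2% in DBDmut, 67.0% in delIDR1, 65.2% in WT and 20% in Empty replicate 2, and both subunits of delIDR1 at 14.8%. With SMARCA4 peaks alone, H3K27ac was at 49.5% in DBDmut, 28.9% in CBR, 32.0% in DDX4, 49.4% in WT, 27.8% in Empty replicate 1 and 37.4% in Empty replicate 2, and both subunits were at 6.39% in CBR and 3.22% in DDX4. Across these, the cause was not tested. Leaving out Empty replicate 1 or 2 gave 589 to 638 sites. H3K27ac was then at 42.4% to 47.5% in delIDR1, 22.8% to 32.3% in CBR and 26.3% to 36.4% in DDX4, at 34.1% in Empty replicate 2 without replicate 1 and at 30.6% in Empty replicate 1 without replicate 2. Both subunits of DDX4 were then at 1.19% to 3.61%. No paired analysis was possible because replicate numbers exist only for Empty. Most sites rest on fewer than 10 SMARCA4 fragments at the summit, which limits the precision of each call. The WT and Empty libraries that excluded sites were deeper than those of DBDmut by the estimate used, and the part of depth in a site's absence from other lists was not tested.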
